A study of Arabidopsis thaliana with 36 samples.

Results

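The light-harvesting and photosystem genes of the Arabidopsis nucleus form a set of 45 loci out of 32833 loci in the count tables. They were chosen by locus for the role of their products, but with earlier results of these data known. The set holds 20 antenna genes (14 LHCB genes of photosystem II and 6 LHCA genes of photosystem I). It also holds 22 photosystem subunit genes (12 of photosystem I and 10 of photosystem II), the plastocyanin genes PETE1 and PETE2, and PETC. The LHCB1 genes are LHCB1.1 (AT1G29920), LHCB1.2 (AT1G29910), LHCB1.3 (AT1G29930), LHCB1.4 (AT2G34430) and LHCB1.5 (AT2G34420), and other genes followed closely are LHCB2.1 (AT2G05100), LHCB2.2 (AT2G05070), LHCB3 (AT5G54270), LHCB4.3 (AT2G40100), LHCB6 (AT1G15820), LHCA6 (AT1G19150), PSAG (AT1G55670), PSAN (AT5G64040), PSBO1 (AT5G66570), PSBR (AT1G79040), PETE1 (AT1G76100), PETE2 (AT1G20340) and PETC (AT4G03280). All 45 were found in both count tables, and all 45 passed the filter on low counts in every comparison. RNA came from seven-day-old seedlings of Arabidopsis thaliana, and 36 libraries of the 3′ ends of transcripts fell into 12 groups of 3.

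Seedlings were grown at 22 °C with 16 h of light on 1/2 MS agar with 25 mM sucrose and moved into liquid medium for 1 day before treatment. A total of 9 groups received 1 μM flg22, a peptide of bacterial flagellin that is recognised by the receptor kinase FLS2, in medium with 25 mM sucrose. They comprise the wild type Col, the receptor mutant fls2 and the sugar transporter mutant stp1/4/13 (written stp1stp4stp13 in the study's design), each at 2, 10 and 24 h. STP1, STP4 and STP13 import hexoses into cells. No group received a mock treatment, so fls2, which does not perceive flg22, is the comparison for Col. The other groups are Col seedlings moved to medium without sucrose and harvested at 24 h, labelled Suc_0mM, Suc_25mM and 2DG_1mM. The last of these received 1 mM 2-deoxy-d-glucose, a glucose analogue that hexokinase phosphorylates but that is barely metabolised further, and how the sucrose of Suc_25mM was given is not stated in the labels. The alleles of the mutants and the number of seedlings in a replicate are not stated either, and a replicate is 1 of 3 independent trials. The title names 2DG_1mM where the treatment label names Suc_25mM, or the reverse, in 6 libraries. The titles, which match the column names of the counts, were followed, and every statement on these groups rests on the titles.

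Antenna proteins bind chlorophyll and pass light energy to the reaction centres. LHCB1, LHCB2 and LHCB3 build the major trimers of photosystem II, LHCB4, LHCB5 and LHCB6 are the minor antennae that link those trimers to the core, and LHCA1 to LHCA4 form the belt of photosystem I. The reaction centre proteins themselves are encoded in the plastid. The nuclear subunits studied here serve the docking of ferredoxin (PSAD, PSAE), the docking of plastocyanin (PSAF, PSAN), the binding of antennae (PSAG, PSAH, PSAK, PSAL, PSAO), the water-oxidising side of photosystem II (PSBO, PSBP, PSBQ, PSBR) and photoprotection (PSBS). Plastocyanin carries electrons from the cytochrome b6f complex, of which PETC is the Rieske iron-sulphur protein, to photosystem I. Sugars are well known to repress many of these genes in seedlings, and light and the clock to induce them.

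The LHCB1 and LHCB2 families are shown first by sequence, because their members parted from each other in several comparisons below. The coding sequences of the 5 LHCB1 genes, 798 to 804 bases long, are 86.8% to 96.4% identical. Those of the 3 LHCB2 genes, annotated at 798 to 954 bases, are 64.0% to 77.7% identical. Gaps count as mismatches in these values, so the unequal annotated lengths within LHCB2 lower them. Divergence of the families cannot be compared by them. Over the last 200 bases of the annotated transcripts, where 3′ libraries are read, identity is 44.9% to 51.4% within LHCB1 and 45.4% to 54.2% within LHCB2. How reads that map to several genes were treated is not given in the sources used here, and the sum over a family is given where its members went apart. A sum does not depend on how reads were split among the members, but reads discarded for mapping to several genes would be missing from it too. LHCB1.1, LHCB1.2 and LHCB1.3 lie close together on chromosome 1, and LHCB1.4 and LHCB1.5 face away from each other on chromosome 2. The windows below are the 250 bases upstream of the annotated gene start in RefSeq TAIR10.1, read 5′ to 3′ on the strand of the gene. None of these 6 windows overlaps another annotated gene. Capitals mark matches, on either strand, to the G-box CACGTG, the CCAAT-type element CCAATC, the I-box GATAAG and the evening element AAAATATCT.
LHCB1.1, chr1:10475970-10476219, minus strand: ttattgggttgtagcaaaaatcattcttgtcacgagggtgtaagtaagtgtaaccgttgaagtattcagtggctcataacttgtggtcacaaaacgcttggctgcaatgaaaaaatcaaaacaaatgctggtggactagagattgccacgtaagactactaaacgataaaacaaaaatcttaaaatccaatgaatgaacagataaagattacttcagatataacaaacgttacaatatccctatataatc
LHCB1.3, chr1:10477635-10477884, plus strand: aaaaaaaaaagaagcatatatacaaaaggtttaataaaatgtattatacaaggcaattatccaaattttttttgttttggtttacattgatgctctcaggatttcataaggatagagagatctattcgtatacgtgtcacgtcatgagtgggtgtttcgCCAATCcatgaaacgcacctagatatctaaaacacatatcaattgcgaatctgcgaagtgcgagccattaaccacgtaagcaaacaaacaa
LHCB1.4, chr2:14524357-14524606, plus strand: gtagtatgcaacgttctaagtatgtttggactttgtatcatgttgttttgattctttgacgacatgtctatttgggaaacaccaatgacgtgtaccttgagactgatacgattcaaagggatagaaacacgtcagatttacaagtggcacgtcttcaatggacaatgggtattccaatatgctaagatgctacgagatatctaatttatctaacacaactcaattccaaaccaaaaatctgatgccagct
LHCB1.5, chr2:14523569-14523818, minus strand: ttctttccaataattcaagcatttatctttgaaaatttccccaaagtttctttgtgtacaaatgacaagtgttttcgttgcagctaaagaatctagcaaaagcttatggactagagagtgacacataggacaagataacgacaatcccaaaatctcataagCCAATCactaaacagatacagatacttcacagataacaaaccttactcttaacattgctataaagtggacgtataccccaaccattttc
LHCB2.2, chr2:1800473-1800722, minus strand: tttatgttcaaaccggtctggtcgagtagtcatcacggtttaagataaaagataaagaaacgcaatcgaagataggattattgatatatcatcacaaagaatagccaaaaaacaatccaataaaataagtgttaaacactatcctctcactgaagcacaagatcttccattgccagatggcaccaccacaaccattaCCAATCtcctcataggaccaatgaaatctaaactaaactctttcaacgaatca
LHCB2.3, chr3:10255656-10255905, plus strand: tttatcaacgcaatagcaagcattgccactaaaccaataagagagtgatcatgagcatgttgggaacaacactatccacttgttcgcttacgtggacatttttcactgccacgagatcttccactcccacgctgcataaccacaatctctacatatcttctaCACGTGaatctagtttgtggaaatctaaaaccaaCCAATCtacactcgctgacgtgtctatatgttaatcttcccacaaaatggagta

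CCAATC was found at 91 bases before the start in LHCB1.3, at 89 in LHCB1.5, at 53 in LHCB2.2 and at 54 in LHCB2.3, and LHCB2.3 also held a G-box at 88. LHCB1.1 and LHCB1.4 held none of the 4 motifs in this window. Over the antenna genes, 10 of 20 windows held CCAATC, against 1 of 22 windows of photosystem subunit genes and 10.2% of 27443 windows of all protein-coding genes. The G-box was in 8 of the 45 windows, 4 of antenna and 4 of subunit genes, against 6.49% of all windows. The I-box was in 11, against 12.3%, and the evening element in 1, that of LHCA5, against 2.36%. These matches describe the letters in a window and were not tested for a role.

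Library totals ran from 8054500 to 20111338 counts. FLS2 stood at 0.102 to 0.226 CPM (counts scaled by the library total) in the fls2 libraries and at 11.9 to 51.8 in the other flg22 libraries. STP1 stood at 2.63 to 28.7 CPM in stp1/4/13 against 143 to 458 in Col under flg22, STP4 at 34.5 to 101 against 154 to 400, and STP13 at 7.36 to 15.9 against 82.9 to 335. In fls2, STP4 (45.4 to 70.8) and STP13 (5.09 to 42.7) were low as well. A 3′ tag can lie outside the disrupted part of a gene, and the alleles are not stated. FRK1, a marker of flg22 perception, was at 0.564 to 3.05 CPM in fls2 and at 22.6 to 310 in Col under flg22. The 2 h and 24 h libraries are held in a count table apart from that of the 10 h, sucrose and 2DG libraries, so the 10 h time point and the table cannot be told apart. Calls below are at an adjusted p under 0.05 in edgeR's two-sided quasi-likelihood test, its p-values adjusted by Benjamini and Hochberg's method across every gene of a fit. Fold changes are on the log2 scale with their standard error (SE). Of FLS2, STP1, STP4, STP13 and FRK1, 4 were called lower in stp1/4/13 than in Col at 10 h, beside 4.84% of all genes. These 4 therefore include FLS2 or FRK1. At 2 h and at 24 h 3 of the 5 were called lower. The part of FLS2 or FRK1 in the differences of the photosynthesis genes was not tested.

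The 45 genes together took 0.416% to 4.72% of the counts of a library. The lowest shares were those of the 2DG_1mM libraries (0.416% to 0.801%) and of Col at 2 h (0.715% to 1.24%). The highest were those of Suc_0mM (3.55% to 4.72%), stp1/4/13 at 24 h (3.03% to 3.95%) and fls2 at 2 h (3.33% to 3.69%). At 2 h the groups stood apart in the order Col, stp1/4/13 (1.64% to 2.66%), fls2, and no 2 of them overlapped. At 10 h Col (1.82% to 1.98%) lay below fls2 (2.04% to 2.59%), which overlapped with stp1/4/13 (2.5% to 3.06%). At 24 h Col (1.28% to 2.46%) overlapped with fls2 (1.92% to 2.43%), and stp1/4/13 lay above both. Suc_25mM (1.56% to 1.82%) lay between 2DG_1mM and Suc_0mM. In whole seedlings, fewer green cells and less RNA of these genes per cell cannot be told apart.

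**Figure D1:**
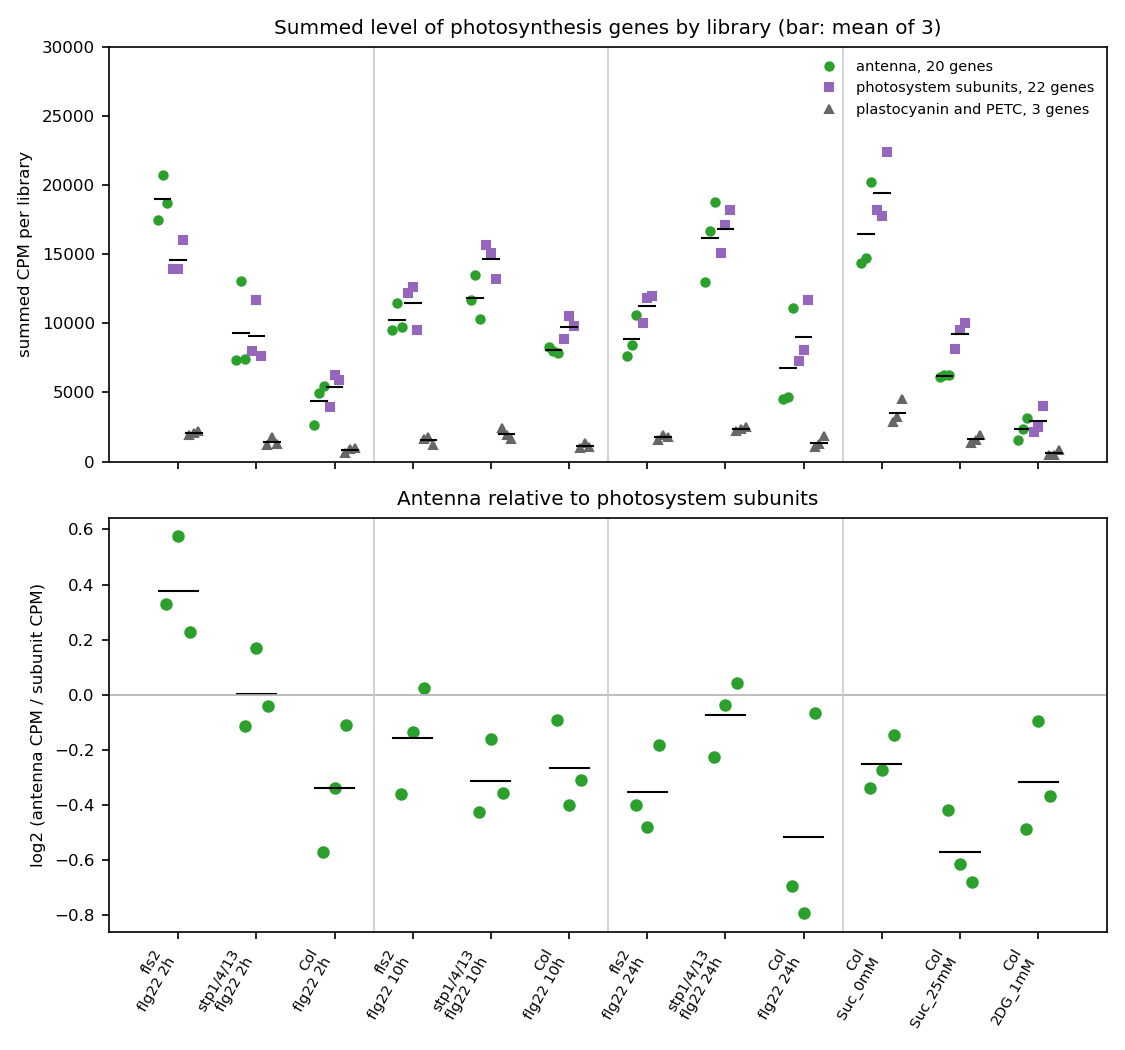
Upper panel, summed CPM of the 20 antenna genes (circles), 22 photosystem subunit genes (squares) and 3 plastocyanin and PETC genes (triangles) in each library, with a bar at the mean of 3 libraries; lower panel, log2 of summed antenna CPM over summed subunit CPM. Antenna sums at 2 h run from 2640 to 5480 CPM in Col and from 17500 to 20700 CPM in fls2, and the 2DG_1mM libraries sit lowest of the sucrose series at 1540 to 3130 CPM.

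At 2 h of flg22 nearly the whole set was lower in Col than in fls2. Of the 45 genes, 44 were called lower and none higher, beside 16.1% of the 21463 genes tested that were called lower and 18.7% called higher. The median log2 difference was -1.92 over the antenna genes, -1.38 over the photosystem subunits and -1.29 over plastocyanin and PETC, against a median near 0 over all genes. LHCB1.1, a subunit of the major trimer, stood at 425, 816 and 859 CPM in Col and at 4750, 5780 and 4410 CPM in fls2. The groups lay far apart, and the difference was -2.69 (SE 0.46, edgeR adjusted p = 0.00015). For LHCB1.3, the LHCB1 gene of highest mean CPM over all libraries, it was -1.39 (SE 0.31, edgeR adjusted p = 0.0016). LHCB2.2, of the second trimer family, stood at 27.9, 62.7 and 87.1 CPM in Col and at 383, 467 and 434 CPM in fls2. Every Col library lay below every fls2 library, and the difference was -2.70 (SE 0.50, edgeR adjusted p = 0.00034). Summed over its genes, LHCB1 was lower by a log2 of -1.98 (SE 0.35, edgeR adjusted p = 0.00021) and LHCB2 by -2.27 (SE 0.39, edgeR adjusted p = 0.00016).

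The largest difference belonged to LHCA6, a linker between photosystem I and the NDH complex, at 1.63, 2.78 and 4.89 CPM in Col and 33.8, 48.3 and 38.1 CPM in fls2. The fall was -3.54 (SE 0.57, edgeR adjusted p = 8.4e-05). Among the antennae of photosystem I, LHCA4 stood at 200, 370 and 352 CPM in Col and at 1120, 1090 and 1330 CPM in fls2 (-1.78, SE 0.32, edgeR adjusted p = 0.00026). LHCA1, LHCA2 and LHCA3 fell between -1.51 and -1.98. All 12 photosystem I subunit genes were lower, from -2.10 for PSAH2 to -0.90 for PSAG. PSAG stood at 623, 1070 and 834 CPM in Col and at 1780, 1770 and 1680 CPM in fls2, so the groups did not overlap. All 5 genes of the oxygen-evolving proteins were lower too, from -2.06 (SE 0.22, edgeR adjusted p = 9.3e-07) for PSBO2 to -1.12 (SE 0.22, edgeR adjusted p = 0.00068) for PSBO1. PSBO2 stood at 31.4, 51.1 and 51.0 CPM in Col and at 194, 190 and 239 CPM in fls2.

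The electron carriers differed among themselves. PETE1 stood at 13.5, 21.6 and 25.5 CPM in Col and at 98.0, 119 and 120 CPM in fls2, a difference of -2.32 (SE 0.25, edgeR adjusted p = 8.7e-07). PETE2 was lower by -1.29 (SE 0.23, edgeR adjusted p = 0.00022) and PETC by -0.79 (SE 0.17, edgeR adjusted p = 0.0016). The gene that did not pass was LHCB1.4, at 43.7, 74.9 and 261 CPM in Col and at 168, 163 and 237 CPM in fls2 (-0.41, SE 0.52, edgeR adjusted p = 0.58). Col library 3 lay above all fls2 libraries. LHCB4.3 stood at 3.14, 4.88 and 5.30 CPM against 9.34, 5.85 and 7.78 CPM (-0.62, SE 0.21, edgeR adjusted p = 0.032). Of 14 called genes that were followed with single libraries left out, LHCB4.3 was the only one that lost its call. Its edgeR adjusted p was 0.16 without Col library 1, 0.14 without fls2 library 1 and 0.055 without fls2 library 3. LHCB1.1, LHCB2.2, PSBO2 and PETE1 were not among the 14.

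Of the other lists, 18 of 24 chlorophyll synthesis genes were lower at 2 h and 2 were higher. The shares over all genes were 16.1% called lower and 18.7% called higher. CHLI1, a subunit of magnesium chelatase, was lower by -1.54 (SE 0.17, edgeR adjusted p = 1.4e-06), whereas HEMA2, an isoform of glutamyl-tRNA reductase, was higher by 3.10 (SE 0.30, edgeR adjusted p = 2.4e-07). Of 15 genes for antenna assembly and regulation, 12 were lower and none higher. They include cpSRP54 (-1.34) and cpSRP43 (-1.88), which carry antenna proteins to the thylakoid. Of 10 ATP synthase and ferredoxin genes, 9 were lower, and of 10 chlorophyll breakdown genes, 3 were lower. The 12 root markers summed to 175 to 210 CPM in Col and 182 to 259 CPM in fls2, and the 7 shoot epidermis markers to 947 to 1380 and 1490 to 1850 CPM. Of these markers 1 root gene and no epidermis gene was called, and none was at 0 in a whole group.

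**Figure D2:**
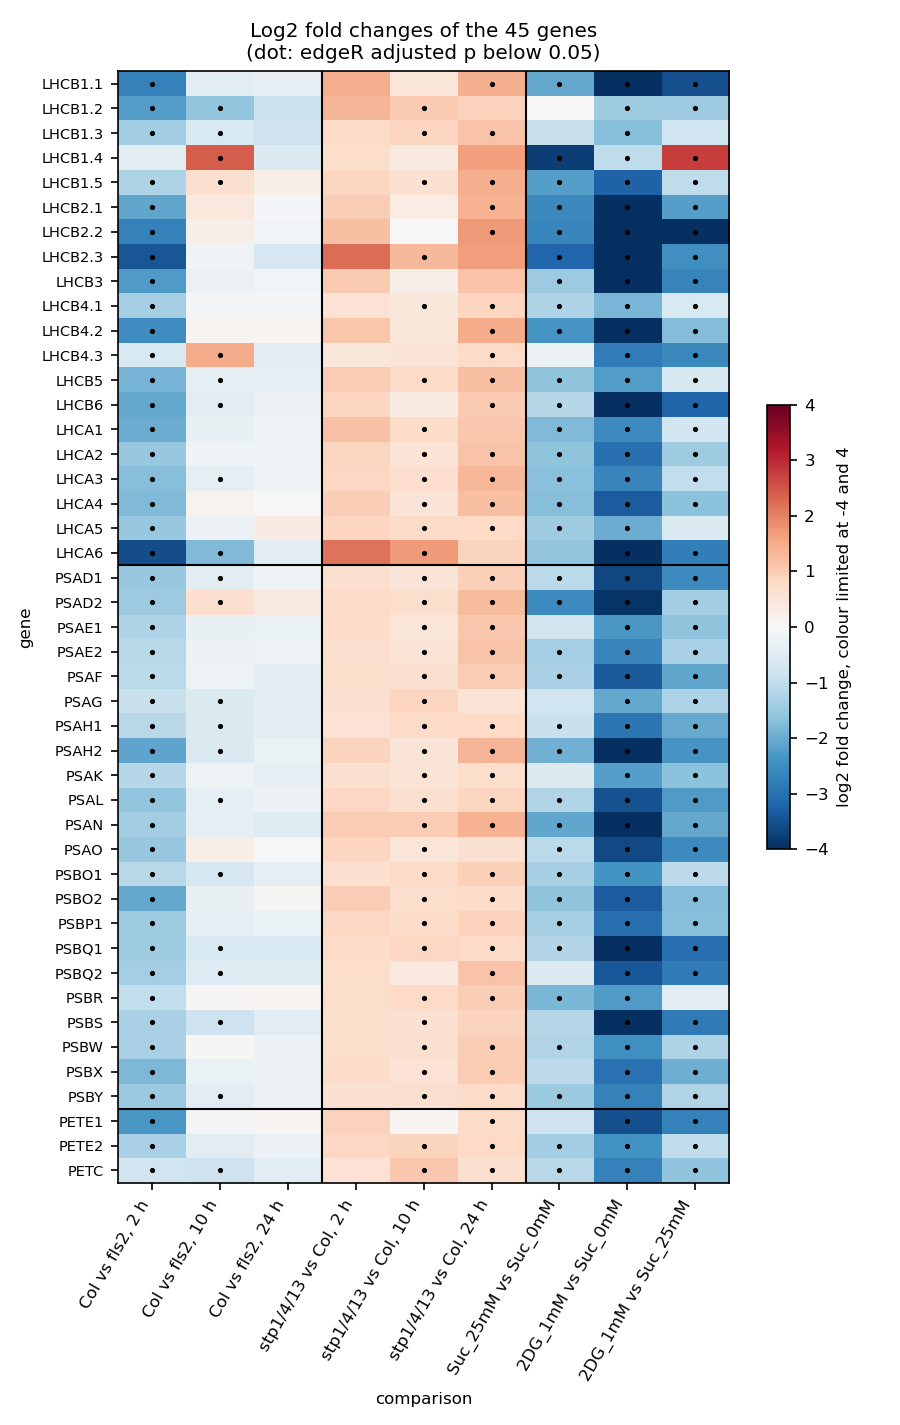
Log2 fold change of each of the 45 genes (rows, grouped by role) in each comparison (columns), with red for higher and blue for lower in the group named first. The column for Col against fls2 at 2 h holds a negative value for every gene, LHCB1.4 (-0.41) not called, whereas at 10 h LHCB1.4 (2.43) and LHCB4.3 (1.47) are red.

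At 10 h the set was divided. Of the 45 genes, 17 were called lower and 4 higher in Col than in fls2, beside 26.4% and 24.9% of the 19561 genes tested. The share called lower stood much nearer to the background than at 2 h and the share called higher lay below it. The medians were small, at -0.22 for antenna, -0.36 for subunits and -0.44 for the carriers. Within LHCB1 the genes went apart. LHCB1.4 stood at 254, 248 and 245 CPM in Col and at 40.0, 50.5 and 43.1 CPM in fls2. It was higher by 2.43 (SE 0.15, edgeR adjusted p = 1.1e-09), the largest rise of the set. Its neighbour LHCB1.5 stood at 981, 860 and 740 CPM against 535, 595 and 475 CPM (0.63, SE 0.16, edgeR adjusted p = 0.0027). On chromosome 1, LHCB1.2 stood at 632, 587 and 717 CPM in Col and 1750, 2240 and 1530 CPM in fls2. It was lower by -1.57 (SE 0.16, edgeR adjusted p = 3.4e-07), and LHCB1.3 by -0.62 (SE 0.13, edgeR adjusted p = 0.00093). Summed over the 5 genes, LHCB1 was lower by -0.54 (SE 0.14, edgeR adjusted p = 0.0031).

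Beyond LHCB1, LHCB4.3, a minor antenna gene also written LHCB8, was higher at 10 h by 1.47 (SE 0.33, edgeR adjusted p = 0.0011), with 9.05, 9.04 and 6.96 CPM in Col and 1.72, 3.97 and 2.98 CPM in fls2. PSAD2, of the ferredoxin docking site, was higher by 0.66 (SE 0.14, edgeR adjusted p = 0.00075), with 113, 119 and 121 CPM against 67.5, 82.2 and 66.4 CPM. In both genes every Col library lay above every fls2 library. LHCA6 showed the largest fall, from 24.1, 28.7 and 11.3 CPM in fls2 to 7.76, 7.85 and 3.78 CPM in Col (-1.78, SE 0.37, edgeR adjusted p = 0.00058). PETC stood at 196, 246 and 214 CPM against 433, 379 and 318 CPM (-0.84, SE 0.15, edgeR adjusted p = 0.00016). LHCB6 was lower by -0.45 (SE 0.14, edgeR adjusted p = 0.013), with an adjusted p of 0.051 to 0.063 without Col library 1, Col library 3 or fls2 library 2. The number of genes called ranged from 15 to 30 when single libraries were left out.

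Chlorophyll synthesis genes were mostly lower at 10 h, and breakdown genes went both ways. Over all genes, 26.4% were called lower and 24.9% higher. Of 23 synthesis genes tested, 16 were lower and 2 higher, with GSA2 at -1.44 (SE 0.17) and HEMA2 at 2.27 (SE 0.17). Of 10 breakdown genes, 4 were higher and 2 lower, which is not far from the shares over all genes. The higher ones include PAO, the oxygenase that opens the chlorophyll ring (1.81, SE 0.18, edgeR adjusted p = 3.3e-07), and SGR2, a STAY-GREEN homologue (3.09, SE 0.46, edgeR adjusted p = 2.5e-05). Of 15 assembly genes 7 were lower and 2 higher, and of 10 ATP synthase and ferredoxin genes 4 were lower and 1 higher. The root markers were lower here in 8 of 12 genes and summed to 42.7 to 46.7 CPM in Col and 272 to 341 CPM in fls2, with AGP30 at 0 in all Col libraries. The epidermis markers were lower in 6 of 7 genes, at 852 to 1030 against 1560 to 1820 CPM. Their part in the differences of the photosynthesis genes was not tested.

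At 24 h no member was called between Col and fls2 in edgeR, beside 18.6% of the genes tested. The unadjusted p was under 0.05 for 6 genes, and DESeq2 called 3 lower. Medians were -0.20 for antenna, -0.26 for subunits and -0.24 for the carriers. Col library 3 stood apart from the other two, with an antenna sum of 11100 CPM against 4500 and 4640 CPM. Library 3 had the highest antenna sum at 24 h in the other genotypes as well. It was 10600 against 7600 and 8460 CPM in fls2 and 18800 against 13000 and 16700 CPM in stp1/4/13. LHCB1.1 stood at 686, 534 and 2260 CPM in Col and at 1260, 1190 and 2090 CPM in fls2, and the groups overlapped. Without Col library 3, 11 genes were called, all of them lower. At 24 h 8 of 12 root markers were lower in Col, at 51.4 to 70.4 CPM summed against 183 to 252 CPM in fls2, and 2 of 7 epidermis markers.

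For most of the set, the difference between Col and fls2 moved towards a higher value in Col at the later times. The shift is signed and did not make every difference smaller. LHCB1.4 went from -0.41 at 2 h to 2.43 at 10 h and LHCB4.3 from -0.62 to 1.47, while PETC stood at -0.79 and -0.84. The interaction of genotype and time, 24 h minus 2 h, was positive past the threshold for 27 of the 45 genes and negative for none, beside 4.5% of all genes that were called positive and 6.04% called negative. Its median was 1.78 over antenna genes and 1.02 over subunits. It was largest for LHCA6 (3.08, SE 0.75, edgeR adjusted p = 0.012). It includes the change within fls2, given below. Without Col 2 h library 1 the count was 14, without fls2 24 h library 1 it was 15, and without Col 24 h library 3 it was 13. For 10 h minus 2 h, 36 genes were positive and none negative, beside 6.32% of 21700 genes called positive and 6.35% called negative. The largest value was that of LHCB2.3 (3.36, SE 1.00, edgeR adjusted p = 0.026), a trimer gene of low level at 1.91 to 10.4 CPM in Col at 2 h. Its adjusted p rose to between 0.058 and 0.074 without library 1 of Col at 2 h or at 10 h, or without library 1 or 3 of fls2 at 10 h. A level difference between the tables cancels in this interaction, whereas a difference of the table that acts on genotypes unequally cannot be told apart from time.

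In stp1/4/13 the values of the set lay above those in Col, and edgeR called members at 10 h and 24 h. At 2 h all 45 values were positive, with medians of 0.98 for antenna, 0.70 for subunits and 0.84 for the carriers, but edgeR called none. The unadjusted p was under 0.05 for 43 genes, and only 0.219% of all genes were called by edgeR. DESeq2 called 12 higher, and edgeR with the replicate number as a block called 7 higher. LHCB1.1 stood at 1780, 3020 and 1160 CPM in stp1/4/13 and at 425, 816 and 859 CPM in Col. The groups did not overlap, and the difference was 1.46 (SE 0.44, edgeR adjusted p = 0.22). PSAN, a lumenal subunit of photosystem I, had the lowest adjusted p of the set (1.01, SE 0.22, edgeR adjusted p = 0.064), with 300, 360 and 214 CPM against 126, 152 and 145 CPM. Without stp1/4/13 library 1 edgeR called 1 gene, and without library 3 it called 2.

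At 10 h, 35 genes were called higher in stp1/4/13 than in Col and none lower, beside 7.67% of all genes called higher and 4.84% called lower. They were 12 of 20 antenna genes, 21 of 22 subunit genes and 2 of 3 carriers. PETC stood at 508, 411 and 384 CPM in stp1/4/13 and at 196, 246 and 214 CPM in Col (1.07, SE 0.15, edgeR adjusted p = 0.00021). PSAG stood at 2550, 2670 and 2570 CPM against 1260, 1690 and 1570 CPM (0.87, SE 0.16, edgeR adjusted p = 0.0016). In both genes the groups were well separated. The uncalled antenna genes include LHCB2.2 (0.01, SE 0.19), LHCB3 (0.23, SE 0.16) and LHCB6 (0.36, SE 0.14), whose libraries overlapped between the groups. LHCA6 was the largest called rise (1.71, SE 0.36, edgeR adjusted p = 0.0053), with 30.3, 15.5 and 14.3 CPM against 7.76, 7.85 and 3.78 CPM. The count was 23 without Col library 1 and 20 without Col library 3, stp1/4/13 library 1 or stp1/4/13 library 2.

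At 24 h, 36 genes were higher in stp1/4/13 and none lower, beside 4.46% of all genes called higher and 4.55% called lower. They were 14 of 20 antenna genes, 19 of 22 subunits and all 3 carriers, with medians of 1.17, 0.96 and 0.78. PSAN had the smallest adjusted p, at 547, 656 and 701 CPM in stp1/4/13 and 156, 225 and 338 CPM in Col (1.39, SE 0.22, edgeR adjusted p = 0.0018). PSBR, which supports water oxidation, stood at 2030, 2190 and 2590 CPM against 894, 1150 and 1350 CPM (0.98, SE 0.19, edgeR adjusted p = 0.0068). Neither pair of groups overlapped. LHCB2.2 was the largest called rise (1.69, SE 0.48, edgeR adjusted p = 0.037), from 75.0, 84.5 and 271 CPM in Col to 304, 398 and 698 CPM. Many of these calls lay near the threshold. The count was 5 without Col library 1, 5 without Col library 2, 9 without stp1/4/13 library 2 and 10 without stp1/4/13 library 3, and 0 when the spread was estimated from the compared groups alone. Of 12 called genes that were followed with single libraries left out, only PSBR kept its call each time. PSAN was not among the 12. The interaction of this difference with time, 24 h minus 2 h, called none of the 45 genes in edgeR, none at an unadjusted p under 0.05 and none in DESeq2, with 0.028% of all genes called.

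Other lists of the pathway were counted in the same comparisons, where 7.67% of all genes were called higher at 10 h and 4.46% at 24 h. At 10 h, 11 of 23 chlorophyll synthesis genes, 11 of 15 assembly genes and 6 of 10 ATP synthase and ferredoxin genes were higher in stp1/4/13 than in Col and none was lower. Examples are OHP2, a small antenna relative (1.02, SE 0.14, edgeR adjusted p = 0.00019), and ATPG, a subunit of the ATP synthase (1.02, SE 0.15, edgeR adjusted p = 0.00031). At 24 h the counts were 14 of 24, 7 of 15 and 5 of 10, again with none lower. They include CHLD, a further magnesium chelatase subunit (1.04, SE 0.19, edgeR adjusted p = 0.0057), and ELIP1, a light-stress antenna relative (1.55, SE 0.30, edgeR adjusted p = 0.0069). Of the breakdown genes 3 of 10 were higher at 10 h and 1 at 24 h. At 2 h 1 chlorophyll synthesis gene, CHLI2 (1.32, SE 0.22, edgeR adjusted p = 0.022), and no other list gene was called. Root markers summed to 47.1 to 79.3 CPM in stp1/4/13 and 42.7 to 46.7 CPM in Col at 10 h, with COBL9 at 0 in all stp1/4/13 libraries. At 24 h they summed to 37.3 to 45.9 and 51.4 to 70.4 CPM. Epidermis markers were higher in 4 of 7 genes at 24 h, at 1180 to 1370 against 551 to 1070 CPM, and their part in the result was not tested.

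**Figure D3:**
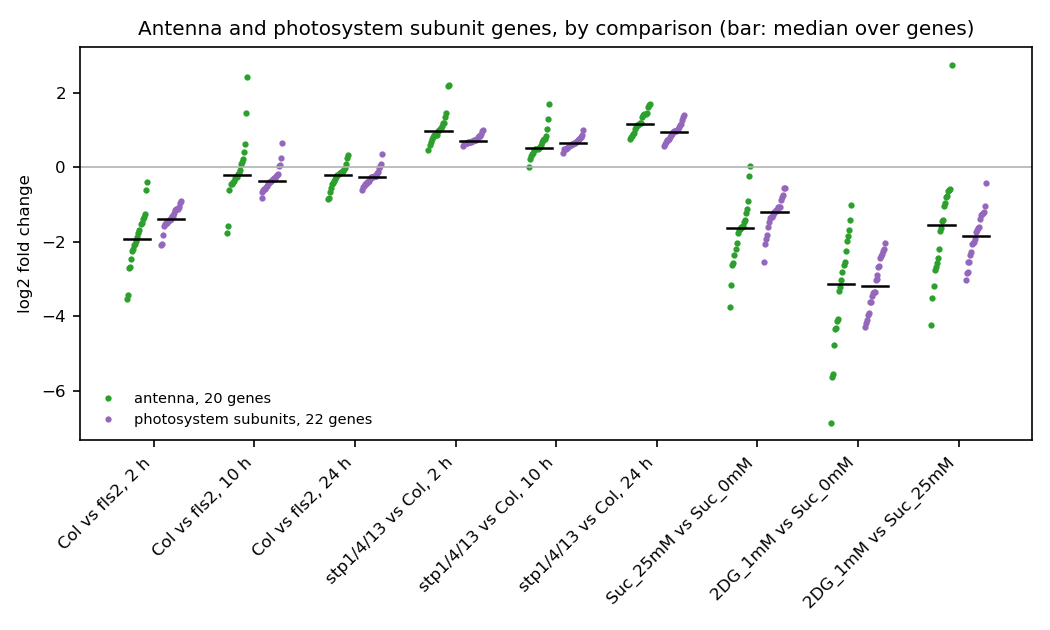
Log2 fold change of each antenna gene and each photosystem subunit gene in the comparisons drawn, with a bar at the median over genes. The change within fls2 over time and the sugar transporter mutant against fls2 are not drawn. The antenna median lies below the subunit median in Col against fls2 at 2 h (-1.92 and -1.38). The medians are alike under 2DG_1mM against Suc_0mM (-3.13 and -3.18).

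Against fls2, called members of stp1/4/13 were lower at 2 h and nearly all higher at 10 h and 24 h, and the change between times was not tested. At 2 h, 22 genes were lower in stp1/4/13 and none higher, beside 9.82% of all genes called lower and 15.8% called higher, with medians of -0.85 for antenna and -0.60 for subunits. LHCB6, a minor antenna, stood at 375, 709 and 510 CPM in stp1/4/13 and at 1230, 1230 and 1450 CPM in fls2 (-1.19, SE 0.32, edgeR adjusted p = 0.010). PETE1 stood at 24.0, 52.9 and 42.0 CPM against 98.0, 119 and 120 CPM (-1.41, SE 0.24, edgeR adjusted p = 0.00024). The groups were apart in both genes, although the LHCB6 call was lost without stp1/4/13 library 1 (adjusted p = 0.060). The count was 3 without stp1/4/13 library 1, 4 without stp1/4/13 library 3, and 13, 11 and 9 without fls2 library 1, 2 and 3. Root markers (181 to 199 against 182 to 259 CPM) and epidermis markers (1290 to 1360 against 1490 to 1850 CPM) held 2 and 0 called genes.

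At 10 h, 19 genes were higher in stp1/4/13 than in fls2 and 1 lower, where 26.9% and 25.3% of all genes were called higher and lower. LHCB1.4 was again the largest rise (2.79, SE 0.15, edgeR adjusted p = 2.1e-10), with 307, 342 and 258 CPM in stp1/4/13. Summed over its 5 genes, LHCB1 differed by 0.19 (SE 0.14, edgeR adjusted p = 0.26) and was not called. LHCB4.3 was higher by 1.97 (SE 0.32, edgeR adjusted p = 6.5e-05) and PSAD2 by 1.35 (SE 0.14, edgeR adjusted p = 3.8e-07). The gene called lower was LHCB1.2 (-0.52, SE 0.16, edgeR adjusted p = 0.0093), at 1120, 1370 and 1280 CPM against 1750, 2240 and 1530 CPM. That call was lost without stp1/4/13 library 1 (adjusted p = 0.055) and without fls2 library 2 (adjusted p = 0.066). Without stp1/4/13 library 1 the count of all called genes was 13. Root markers were lower in 8 of 12 genes and epidermis markers in 7 of 7 (792 to 922 against 1560 to 1820 CPM).

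At 24 h, 22 genes were higher in stp1/4/13 than in fls2 and none lower, beside 11.5% of all genes called higher and 8.39% called lower. LHCA5, an antenna relative at the NDH docking site, stood at 82.3, 81.2 and 112 CPM against 38.1, 49.5 and 43.1 CPM (1.13, SE 0.21, edgeR adjusted p = 0.00071). PSBR stood at 2030, 2190 and 2590 CPM against 992, 1250 and 1150 CPM (1.06, SE 0.19, edgeR adjusted p = 0.00053), so that neither gene overlapped. LHCB1.5 was the largest rise (1.68, SE 0.42, edgeR adjusted p = 0.0077). The count was 8 without fls2 library 1, 11 without fls2 library 2, 11 without stp1/4/13 library 2 and 10 without stp1/4/13 library 3. Of chlorophyll synthesis genes 10 of 24 were higher, and of assembly genes 6 of 15, including the state-transition kinase STN7 (1.33, SE 0.25, edgeR adjusted p = 0.00087). Root markers were lower in 10 of 12 genes, at 37.3 to 45.9 against 183 to 252 CPM, and their part was not tested.

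Within fls2 itself, 15 of the 45 genes were called lower at 24 h than at 2 h and 1 higher, beside 7.93% and 11.9% of all genes. The lower ones were 11 of 20 antenna genes, 3 of 22 subunits and PETE1, while 8 antenna genes were not called, and the 2 classes were not tested against each other. The antenna median was -1.16 and the subunit median -0.44. LHCB3, of the major trimers, went from 1130, 1320 and 1470 CPM at 2 h to 363, 438 and 648 CPM at 24 h (-1.46, SE 0.43, edgeR adjusted p = 0.027). PSAG stood at 1780, 1770 and 1680 CPM at 2 h and at 1670, 1690 and 1810 CPM at 24 h (-0.04, SE 0.22), and these libraries overlapped. LHCB1.4 showed the largest called fall (-1.82, SE 0.54, edgeR adjusted p = 0.027). The gene that was higher was LHCB4.3, at 9.34, 5.85 and 7.78 CPM and then 10.9, 15.7 and 16.7 CPM (0.91, SE 0.21, edgeR adjusted p = 0.0093).

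These calls in fls2 rest on few libraries. Without the 24 h library 1 only LHCB4.3 was called, without the 24 h library 2 the count was 3, without the 2 h library 2 it was 2 and without the 2 h library 3 it was 10. None of the 5 called genes that were followed with single libraries left out kept its call each time. LHCB4.3 had an adjusted p of 0.063 without the 2 h library 2. Both time points lie in the same count table, and the labels do not state the hour of the day at harvest. Root markers (182 to 259 and 183 to 252 CPM) held no called gene and epidermis markers (1490 to 1850 and 1340 to 1510 CPM) held 1. Of the chlorophyll synthesis genes 6 of 24 were lower, beside 7.93% of all genes. Among them was PORC, a protochlorophyllide reductase (-1.31, SE 0.35, edgeR adjusted p = 0.018). Of the assembly genes 3 of 15 were higher, beside 11.9% of all genes. Among them was the phosphatase TAP38 (0.69, SE 0.18, edgeR adjusted p = 0.018).

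In the sucrose series, Suc_25mM had lower levels of most of the set than Suc_0mM. Of the 45 genes 34 were lower and none higher, beside 6.08% of the 19727 genes tested that were called lower and 6.41% called higher. Medians were -1.64 for antenna, -1.20 for subunits and -1.10 for the carriers. All 3 LHCB2 genes were lower. LHCB2.1 stood at 1700, 1890 and 2790 CPM without sucrose and at 407, 358 and 413 CPM with it (-2.58, SE 0.38, edgeR adjusted p = 0.0016). LHCB2.2 went from 351, 362 and 620 CPM to 88.4, 69.5 and 81.1 CPM (-2.62, SE 0.29, edgeR adjusted p = 0.00036). The groups lay far apart in both. Summed, LHCB2 was lower by -2.59 (SE 0.36, edgeR adjusted p = 0.0012) and LHCB1 by -1.31 (SE 0.30, edgeR adjusted p = 0.016).

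LHCB1.4 showed the largest fall of the set under sucrose, from 284, 174 and 233 CPM to 16.3, 23.4 and 15.3 CPM (-3.76, SE 0.31, edgeR adjusted p = 8.7e-05). In the same libraries LHCB1.2 stood at 363, 348 and 449 CPM and at 530, 386 and 375 CPM, which overlap (0.02, SE 0.42, edgeR adjusted p = 0.98). PSAD2 went from 186, 172 and 211 CPM to 33.3, 36.7 and 36.6 CPM (-2.54, SE 0.29, edgeR adjusted p = 0.00039). PSBR went from 2810, 2670 and 2970 CPM to 766, 860 and 966 CPM (-1.83, SE 0.22, edgeR adjusted p = 0.00054). Among the 11 genes that did not pass are LHCB1.3 (-0.92, SE 0.32, edgeR adjusted p = 0.089) and PSAG (-0.8, SE 0.27, edgeR adjusted p = 0.08). These have the highest mean CPM within LHCB1 and within the photosystem I subunits. PSAK (-0.55, SE 0.23), PSBQ2 (-0.57, SE 0.33) and LHCB4.3 (-0.24, SE 0.68) did not pass either. LHCB4.3 stood at 12, 2.33 and 14.3 CPM against 8.19, 6.62 and 11.9 CPM. The count was 21 without Suc_25mM library 1. Of 11 called genes that were followed with single libraries left out, 7 kept their call each time, and LHCB6, PSBO1, PETE2 and PETC did not. LHCB2.2 and PSAD2 were not among these 11.

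Related lists held lower genes in Suc_25mM too, where 6.08% of all genes were called lower. They were 8 of 23 chlorophyll synthesis genes, 7 of 15 assembly genes, 6 of 10 ATP synthase and ferredoxin genes and 3 of 10 breakdown genes, and none was higher. CAO, which makes chlorophyll b for the antennae, was lower by -1.52 (SE 0.24, edgeR adjusted p = 0.0025), STN7 by -1.77 (SE 0.25, edgeR adjusted p = 0.0013) and PGR5, of cyclic electron flow, by -1.64 (SE 0.23, edgeR adjusted p = 0.0012). Root markers held no called gene and summed to 82.6 to 147 CPM against 50.3 to 90.7 CPM. Epidermis markers summed to 1260 to 1500 and 988 to 1510 CPM, with 4 of 6 tested genes lower. FRK1 was at 36.8 CPM in Suc_0mM library 1 and at 1.21 and 0.854 CPM in libraries 2 and 3. The count of called members did not move by over 1.5 times without that library.

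In 2DG_1mM every member was lower than in Suc_0mM. All 45 were called, beside 27.9% of all genes called lower and 21.3% called higher, and the medians were -3.13 for antenna, -3.18 for subunits and -2.71 for the carriers. The median over all genes tested was -0.21. LHCB2.2 showed the largest difference, from 351, 362 and 620 CPM to 3.47, 4.59 and 3.02 CPM (-6.86, SE 0.36, edgeR adjusted p = 3.5e-07). LHCB1.1 went from 1910, 2210 and 3190 CPM to 36.9, 48.5 and 65.1 CPM (-5.56, SE 0.34, edgeR adjusted p = 7.4e-07). Every treated library lay far below every library without sucrose in both genes. LHCB1.3, the LHCB1 gene of highest mean CPM over all libraries, was lower by -1.7 (SE 0.33, edgeR adjusted p = 0.0012). PSAN went from 737, 950 and 806 CPM to 37.4, 46.3 and 55.1 CPM (-4.11, SE 0.24, edgeR adjusted p = 7.1e-07). LHCB2.3 stood at 25.6, 22.9 and 55.1 CPM and at 0.188, 1.80 and 0 CPM, the single library of the series in which a member was at 0. The smallest difference was that of LHCB1.4 (-1.01, SE 0.28, edgeR adjusted p = 0.010), at 87.4, 143 and 96.9 CPM. Summed, LHCB1 was lower by -2.35 (SE 0.31, edgeR adjusted p = 0.00011) and LHCB2 by -4.98 (SE 0.40, edgeR adjusted p = 4.4e-06). Of 15 genes that were followed with single libraries left out, none lost its call. LHCB1.1, PSAN and LHCB2.3 were not among the 15, and the count of called members stayed at 44 or 45.

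Set against Suc_25mM, 41 genes were lower in 2DG_1mM and 1 higher, beside 28% and 21.4% of all genes. The medians were -1.54 for antenna, -1.84 for subunits and -1.61 for the carriers, with a median of -0.23 over all genes. LHCB2.2 was again the largest fall (-4.24, SE 0.33, edgeR adjusted p = 3.8e-06). The gene that was higher was LHCB1.4 (2.75, SE 0.30, edgeR adjusted p = 2.9e-05), since its libraries at 87.4, 143 and 96.9 CPM all lay above those of Suc_25mM at 16.3, 23.4 and 15.3 CPM. The LHCB1 sum went the other way (-1.05, SE 0.30, edgeR adjusted p = 0.014). LHCB1.3, LHCA5 and PSBR were not called. PSBR stood at 469, 487 and 746 CPM in 2DG_1mM and at 766, 860 and 966 CPM in Suc_25mM (-0.43, SE 0.22, edgeR adjusted p = 0.12). If the treatment labels rather than the titles are right, these directions are exchanged, with 41 genes higher and 1 lower. LHCB4.1 (adjusted p = 0.030) lost its call without 2DG_1mM library 1 or 2 or Suc_25mM library 2 or 3, with adjusted p from 0.080 to 0.12, and PETE2 (0.015) without 2DG_1mM library 1 or 2 or Suc_25mM library 3, with 0.054 to 0.063.

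The fall in 2DG_1mM was shared by the synthesis lists and not by the breakdown list. Over all genes, 27.9% were called lower than in Suc_0mM and 21.3% higher. Against Suc_0mM, 16 of 23 chlorophyll synthesis genes, 13 of 15 assembly genes and 10 of 10 ATP synthase and ferredoxin genes were lower, and 2 chlorophyll synthesis genes were higher. CHLG, the chlorophyll synthase, was lower by -3.48 (SE 0.27, edgeR adjusted p = 3.7e-06) and ATPD, of the ATP synthase, by -3.58 (SE 0.33, edgeR adjusted p = 9.8e-06). Of 10 breakdown genes 4 were higher and none lower, among them PPH, pheophytinase (1.45, SE 0.19, edgeR adjusted p = 9.3e-05), and SGR1, the magnesium dechelatase (1.05, SE 0.25, edgeR adjusted p = 0.0053). Markers of other tissues were lower as well. Root markers were lower in 9 of 12 genes, at 16 to 20 CPM summed against 50.3 to 90.7 CPM, with EXPA7 at 0 in all 2DG_1mM libraries. Epidermis markers were lower in 6 of 6 tested genes, at 84.5 to 162 against 988 to 1510 CPM. Their part in the fall of the photosynthesis genes was not tested.

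Antenna relative to photosystem subunits was followed as log2 of summed antenna CPM over summed subunit CPM in each library, with no test, and only differences between groups are read from it. At 2 h the values were 0.331, 0.575 and 0.227 in fls2, -0.115, 0.168 and -0.043 in stp1/4/13 and -0.571, -0.340 and -0.111 in Col. The means fell in that order, at 0.38 ± 0.18, 0.00 ± 0.15 and -0.34 ± 0.23 (SD, n = 3). The libraries of stp1/4/13 and fls2 did not overlap (-0.37), nor did those of Col and fls2 (-0.72), whereas those of Col and stp1/4/13 did. In fls2 the ratio went down from 2 h to 24 h by -0.73, again with no overlap (-0.402, -0.481 and -0.182 at 24 h). In Suc_25mM (-0.418, -0.615 and -0.680) it lay below Suc_0mM (-0.338, -0.275 and -0.148) by -0.32, and these groups did not overlap.

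In the other comparisons the libraries overlapped. Col and fls2 differed by -0.11 at 10 h and -0.16 at 24 h, and stp1/4/13 and Col by -0.05 at 10 h and 0.45 at 24 h. 2DG_1mM differed from Suc_0mM by -0.06 and from Suc_25mM by 0.25. Sums are weighted by the genes of highest level, mainly LHCB1. As a mean over genes in place of a sum, the difference of Col and fls2 at 10 h was 0.23 and that of stp1/4/13 and fls2 at 10 h was 0.19, where the sums gave -0.11 and -0.16. For the comparisons without overlap the direction was the same by either measure.

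**Figure D4:**
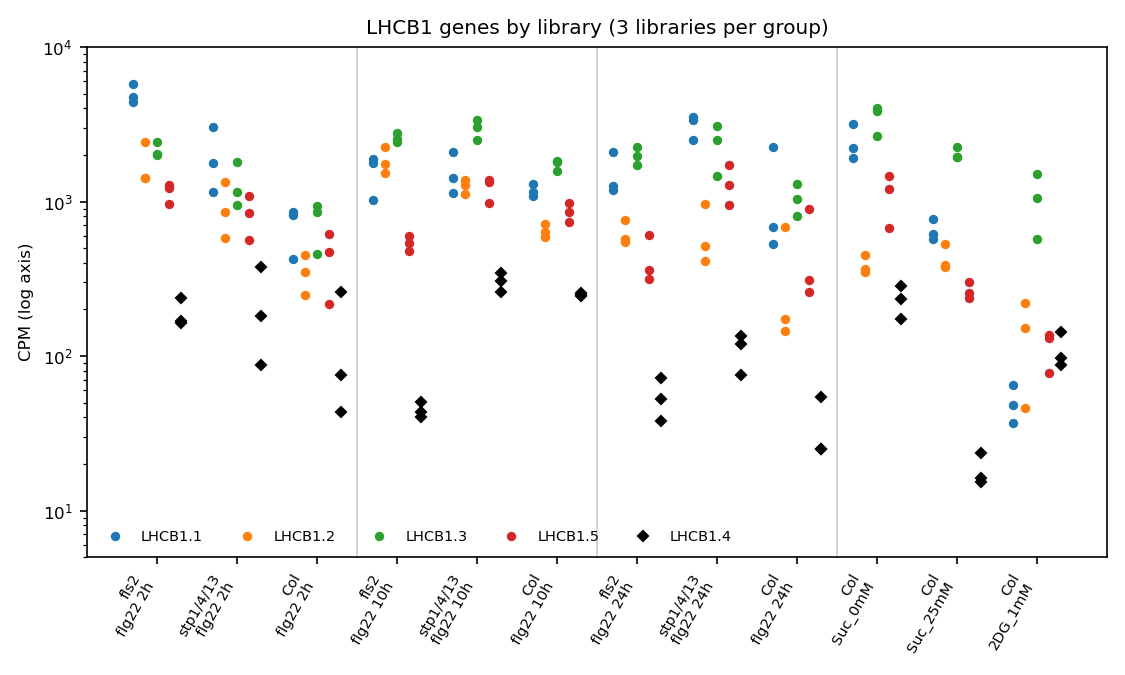
CPM of the 5 LHCB1 genes in each of the 36 libraries, on a log axis, with 3 points per group and gene. LHCB1.4 is lowest in Suc_25mM at 15.3 to 23.4 CPM and has its highest group mean, 302 CPM, in stp1/4/13 at 10 h at 258 to 342 CPM, and its Col and stp1/4/13 points at 10 h lie above those of fls2 at 40.0 to 50.5 CPM.

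LHCB1.4 stood apart from its family, and it was singled out after its values were seen. Its group ranges were 245 to 254 CPM in Col, 258 to 342 in stp1/4/13 and 40.0 to 50.5 in fls2 at 10 h. At 24 h they were 24.9 to 54.5, 75.1 to 134 and 38.0 to 71.6 CPM, with stp1/4/13 above both others and Col overlapping with fls2. At 2 h they spread widely, at 43.7 to 261, 87.7 to 378 and 163 to 237 CPM, and all 3 overlapped. Library 3 was the highest of its group for each genotype at 2 h, at 261, 378 and 237 CPM. Levels at 10 h and in the sucrose series come from the other count table, so their order against 2 h and 24 h rests on libraries counted apart. LHCB1.5, across the intergenic region, differed by -3.23 (SE 0.33) between 2DG_1mM and Suc_0mM, where LHCB1.4 differed by -1.01 (SE 0.28). The interaction of genotype and time at 10 h minus 2 h was 2.91 (SE 0.65, edgeR adjusted p = 0.0037) for LHCB1.4 and 1.96 (SE 0.51, edgeR adjusted p = 0.011) for LHCB1.5.

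Values were also set beside the motifs in the windows printed above. Antenna genes with CCAATC had a median of -1.88 in Col against fls2 at 2 h and those without it -1.96, with 10 genes each. At 10 h the medians were 0.01 and -0.32, in Suc_25mM against Suc_0mM -2.0 and -1.52, and in 2DG_1mM against Suc_0mM -3.28 and -2.92. In 2DG_1mM against Suc_25mM their order was opposite to that against Suc_0mM, at -1.33 with the motif and -2.01 without it. The ranges of the genes with and without the motif overlapped in each of these comparisons. LHCB1.1 and LHCB1.4, both without any of the 4 motifs, differed by -5.56 and -1.01 in 2DG_1mM against Suc_0mM. LHCB1.3 and LHCB1.5, both with CCAATC near the start, differed by -0.62 and 0.63 in Col against fls2 at 10 h. These pairs were picked after their values were seen, and a role of the motifs was not tested.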

How the data were processed

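RNA from seedlings was made into strand-specific 3′ libraries by BrAD-seq from 500 ng of total RNA, per the labels' protocols. The authors deposited whole-number read counts per locus in 2 tables, 1 with the 2 h and 24 h libraries and 1 with the others. Per the submitters' processing notes, the tools were fastp 0.19.7, STAR 2.6.1b and featureCounts 1.6.0 with the TAIR10 build, while the strand setting and the handling of multiply mapping reads are not given in the sources used here. Every column of both tables belonged to a sample, and no libraries were identical.

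From the counts, CPM were computed over library totals of 8054500 to 20111338 counts, which set the counting precision. Tests were edgeR 4.0.16 quasi-likelihood fits (R 4.3.3, limma 3.58.1) with TMM scaling and filterByExpr, 1 fit each for the 2 h and 24 h libraries, the 10 h libraries, the sucrose and 2DG libraries, and all flg22 libraries for the interaction of 10 h with 2 h. SE is the absolute log2 fold change over the square root of F. Alternatives were DESeq2 1.42.0, RLE scaling, TMM without the members, no filter, a replicate block, only the compared groups, leaving out each library, and groups from the treatment label for the 6 libraries whose labels conflict. Antenna-to-subunit ratios are log2 of summed CPM with no test.

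Promoter windows and transcript ends were read with Biopython 1.88 from RefSeq TAIR10.1 by its own annotation, and 32548 of 32833 loci matched its table. Members and lists were chosen with earlier results of these data known. Named genes are the member of highest mean CPM in each class, the largest called rise and fall in each comparison, and called members that went against most others. Where others are named to show a range or a contrast, they were chosen after their values were seen. Of these others, LHCB1.4 and LHCB4.3 were followed in every comparison. The rest are not in the counts of named genes that kept or lost a call. Labels say that replicates came from independent trials.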

Additional observations from a re-analysis of the deposited data

Results flagged for a closer look

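The difference between Col and fls2 under flg22 changed with time, as tested by the interaction term in edgeR. From 2 h to 24 h, 27 members changed past the threshold, all towards a higher value in Col relative to fls2, beside 4.5% of all genes called positive and 6.04% negative. The count was 14 without Col 2 h library 1, 15 without fls2 24 h library 1 and 13 without Col 24 h library 3. The log2 change was 3.08 for LHCA6, 2.14 for LHCB3, 1.99 for LHCB2.1, 1.84 for LHCA5, 1.80 for LHCB6 and 1.76 for LHCA4. It was 1.28 for LHCB4.1, 1.06 for PSBR and 1.05 for PETE2.

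From 2 h to 10 h, 36 members changed past the threshold in the same direction, beside 6.32% of all genes called positive and 6.35% negative. The log2 change was 3.36 for LHCB2.3, 2.91 for LHCB1.4, 2.57 for LHCB2.1, 2.17 for LHCB4.3 and 2.09 for LHCB3. The call of LHCB2.3 was lost without library 1 of Col at 2 h or 10 h, or library 1 or 3 of fls2 at 10 h. The change was 1.99 for LHCA4, 1.68 for LHCB6, 1.35 for LHCB4.1, 1.34 for LHCA5 and 1.1 for PSBR. The 10 h libraries come from the other count table, which cannot be told apart from the time.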

How the results depend on the processing

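Between Col and fls2 at 24 h, edgeR called no member, DESeq2 3, TMM without the members 2, the replicate block 1 and the compared groups alone 1, all lower. Between stp1/4/13 and Col at 2 h, where none was called, DESeq2 called 12, no filter 1 and the replicate block 7, all higher. At 24 h the compared groups alone gave 0 in place of 36. The block changed no other count by over 1.5 times. Replicate numbers were not taken to pair samples, since the labels do not state that a number marks a trial. The lowest correlation of same-numbered deviations was 0.033 at 2 h and 24 h, -0.17 at 10 h and -0.036 in the sucrose series. At 2 h and 24 h the median was 0.351 for same numbers and -0.157 for different numbers. As a hint from the data and not the design, 18 of 18, 6 of 9 and 8 of 9 libraries correlated best with their own number. With groups from the treatment label, 2DG_1mM against Suc_25mM turned round with 42 calls, and log2 values became 2.19 for LHCB2.1, 2.68 for LHCB3, 0.61 for LHCB4.1, 3.19 for LHCB6, 1.63 for LHCA4, 1.25 for PSAG, 1.05 for PSBO1, 1.03 for PETE2, 1.61 for PETC, 4.24 for LHCB2.2, -2.75 for LHCB1.4 and 2.57 for LHCB4.3. The antenna-to-subunit difference then became -0.06 for Suc_25mM and -0.32 for 2DG_1mM against Suc_0mM, and -0.25 for 2DG_1mM against Suc_25mM. As a mean of genes it was 0.23 for Col and 0.19 for stp1/4/13 against fls2 at 10 h. The cause of these changes was not tested, apart from the exchange of labels, which turns the sign by construction.

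Leaving out 1 library at a time, the counts of called members ran as follows. For Col against fls2 they were 42 to 45 at 2 h, 15 to 30 at 10 h and 0 to 11 at 24 h. For stp1/4/13 against Col they were 0 to 2, 20 to 37 and 5 to 43, and against fls2 3 to 26, 13 to 27 and 8 to 21, in the same order of times. They were 1 to 17 for fls2 over time, 21 to 35 for Suc_25mM and 44 to 45 for 2DG_1mM against Suc_0mM, and 35 to 43 for 2DG_1mM against Suc_25mM. The interactions of Col and fls2 gave 13 to 32 at 24 h and 26 to 37 at 10 h, and that of stp1/4/13 and Col 0. The antenna-to-subunit difference ran from -0.83 to -0.60, -0.21 to -0.02 and -0.39 to -0.03 for Col against fls2 at 2, 10 and 24 h. For stp1/4/13 it ran from 0.23 to 0.46, -0.12 to 0.04 and 0.31 to 0.67 against Col, and from -0.46 to -0.28, -0.26 to -0.07 and 0.22 to 0.37 against fls2. It ran from -0.82 to -0.63 for fls2 over time, -0.39 to -0.26 for Suc_25mM and -0.17 to 0.02 for 2DG_1mM against Suc_0mM, and 0.14 to 0.34 for 2DG_1mM against Suc_25mM. Of 1681 alternative values over 129 pairs of a named gene and a comparison, 1494 kept direction and call, 175 lost the call and 12 changed sign.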
